A study of Rattus norvegicus with 40 samples.

Results

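Whole lungs of fetal Wistar rats at gestational day 16 (E16) were compared with those at day 20 (E20) on Affymetrix rat expression arrays, 10 arrays at each age out of the 40 of the study, which also covered intestine. The arrays were chosen by their titles, and all genes were followed that the array's annotation names by a probe set with 1 gene symbol (short oligonucleotides read together as 1 value for a transcript). These were 20826 of 31099 probe sets and 14217 genes. A gene was read from its brightest probe set, and no gene was left out for a low value. The labels name no treatment at either age, and both groups differ in gestational age alone as far as the labels say. Levels of the Y-linked gene Eif2s3y, given below, varied widely between arrays at each age, so the mix of sexes may differ too. From each sample 2 µg of total RNA was labelled. Tissue of several siblings was frozen, and whether an array holds 1 embryo or several is not settled by the labels. The p-values therefore describe only how far these samples vary, in part perhaps for technical reasons, and age and litter cannot be told apart.

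At E16 the rat lung is a branching tree of epithelial tubes in a thick mesenchyme, fed by growth signals such as FGF, Hedgehog, Wnt and BMP that pass between both layers. By E20 the distal tubes widen into saccules, their lining separates into flat alveolar type I cells, across which gas will pass, and cuboidal type II cells, which store and secrete surfactant, and airway cells acquire cilia and secretory products. Glucocorticoid hormone, a rising capillary supply, elastin in the saccule walls and ion channels that will clear the lung liquid belong to this preparation for birth. RNA of a whole organ mixes all of these cells, and in such samples more cells of a type and more RNA per cell cannot be told apart.

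Levels are given as log2 of the deposited intensity, and a difference, always E20 minus E16, of 1 unit is a 2-fold change. The median over all lung values was 8.345, and array medians lay between 311 and 325 intensity units at E16 and between 325 and 347.5 at E20. The first principal component held 85.0% of the variance and separated the ages, with the E16 arrays at -44.97 to -37.98. Among the E20 arrays, numbers 1, 6 and 8 stood nearer to E16, at 28.9, 34.7 and 29.6, while the other 7 lay between 41.9 and 51.0. Transcripts of liver were 1.42 and 1.49 log2 units above the group median in E20 arrays 1 and 8, those of mesothelium 0.63 above it in E20 array 6, and those of cardiac muscle 2.37 and 2.64 above it in E16 arrays 5 and 9. Values without E20 arrays 1, 6 and 8 are given beside the named genes whose call they change and the list counts they move by over 1.5 times. As these arrays stand nearer to E16 in the same data, leaving them out tends to widen the age differences by itself. A call gained in this way is therefore no further support for a change. The label of the tissue was borne out by Nkx2-1, the transcription factor that defines the lung field of the foregut, which was well above the median level at both ages (9.03 to 10.55 at E16, 9.78 to 11.14 at E20).

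A gene is said to have risen or fallen where the limma adjusted p (two-sided, Benjamini-Hochberg over all 20826 probe sets) was under 0.05 and the change at least 2-fold. By this rule 1023 of the 14217 genes rose (7.2%) and 656 fell (4.61%). These shares are the background for every count below; over single probe sets they were 6.25% and 4.28%. In 974 of the rises and 622 of the falls the 10 arrays of E16 and the 10 of E20 did not overlap, as against 2174 genes higher (15.3%) and 2250 lower (15.8%) that did not overlap among all genes tested. Without a fold minimum the ages were near balance, with 4680 genes higher (32.9%) and 4771 lower (33.6%). Large changes were mostly rises: 299 genes rose (2.1%) and 55 fell (0.387%) by at least 4-fold, and 105 rose (0.739%) and 10 fell (0.0703%) by at least 8-fold. Of the 105 rises of that size, 92 started from an E16 mean below the median lung level.

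**Figure D1:**
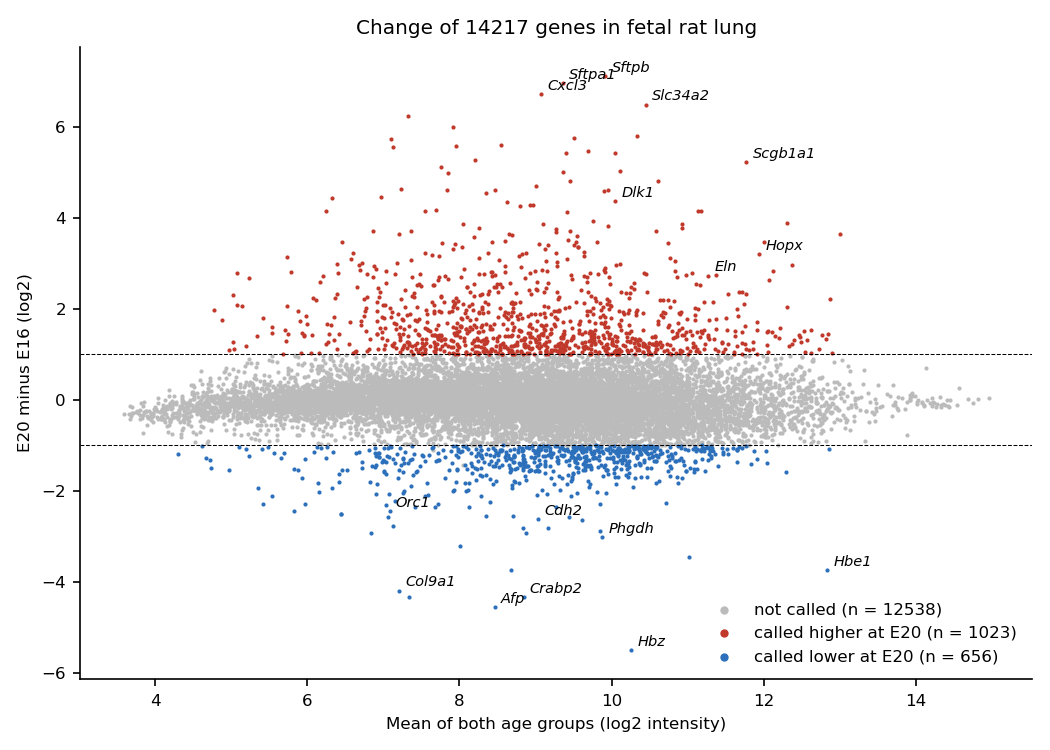
Each point is 1 of 14217 genes, with the mean of both age groups on the x axis (log2 intensity) and the difference E20 minus E16 on the y axis (log2). Red points are the 1023 genes that rose, blue points the 656 that fell, and dashed lines mark a 2-fold change. Rises reach 7.13 log2 units and falls -5.51.

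The 15 largest rises included genes other than those of surfactant. The chemokine Cxcl3, which attracts neutrophils, lay between 5.22 and 6.15 (median 5.68) in the E16 arrays and between 12.14 and 12.66 (12.45) at E20, a 106-fold rise (6.73, SE 0.098, limma adjusted p = 6.80e-24). Its E20 arrays were all high and close together, and all E16 arrays lay far below them. The chloride channel protein Clic3 rose by 5.77 (SE 0.115), from a median of 6.64 to one of 12.39, and the annexin Anxa8, a calcium-dependent membrane-binding protein, by 5.44 (SE 0.128), from 7.17 to 12.83. Atp6v0a4, a subunit of the proton pump that acidifies vesicles and luminal fluid, rose by 5.62 (5.57 to 5.93 at E16, 10.87 to 11.69 at E20). Slc6a14, a broad importer of amino acids, was dim at E16 (3.93 to 5.23) and ranged from 9.29 to 10.42 at E20. Gramd2a rose by 5.73 (SE 0.211) and the carboxylesterase Ces1d by 5.29 (SE 0.103), both also from low E16 medians of 4.13 and 5.60. Defb4, a beta-defensin that kills microbes, rose by 5.58, and its E20 arrays were more widely spread (9.86 to 12.58) than its E16 arrays (4.97 to 5.63).

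**Figure D2:**
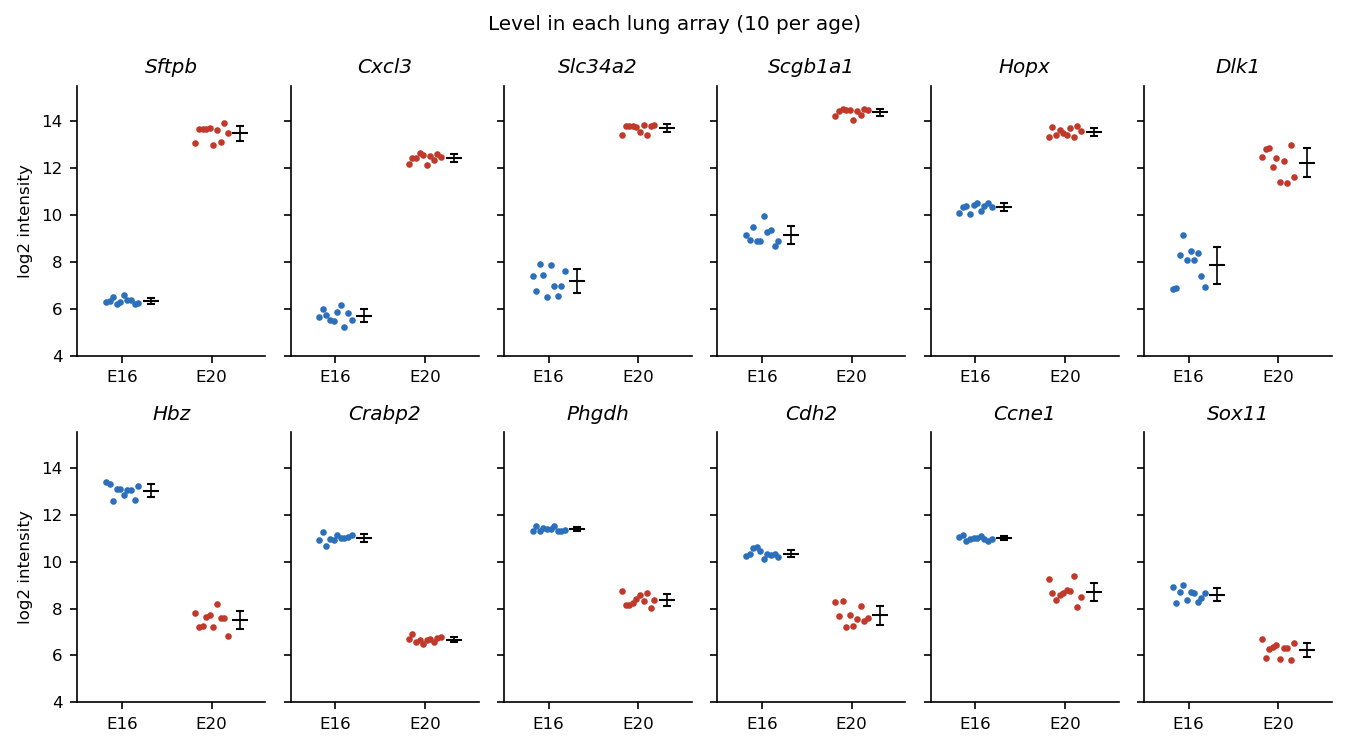
Level of 12 genes in each lung array (log2 intensity), with E16 in blue and E20 in red, and the mean and SD over 10 arrays in black beside the points. In none of these 12 genes do the ages overlap. Dlk1 and Slc34a2 vary over more than 1 log2 unit among the E16 arrays, whereas Sftpb varies by 0.38.

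The machinery of surfactant storage rose nearly as a whole. Of 21 measured genes of the surfactant proteins and of the lamellar body, the organelle in which type II cells pack surfactant, 19 rose, with a median difference of 3.48 against -0.0061 over all genes. Sftpb, which spreads the surfactant film, stood between 6.21 and 6.59 (median 6.33) at E16 and between 12.98 and 13.90 (13.64) at E20, a 140.5-fold rise. Its 3 lowest E20 values (12.98 to 13.11) were those of arrays 1, 6 and 8, and the other 7 began at 13.48. Slc34a2, which carries phosphate out of the alveolar fluid, split the same way, at 13.40 to 13.53 in these 3 arrays and 13.75 to 13.86 in the others. Napsa, the aspartic protease that processes the surfactant proteins, rose by 5.49 (SE 0.158) and lysozyme, Lyz2, by 3.90 (SE 0.090). Sftpc, singled out here after its values were seen, was already bright at E16 (10.46 to 11.69) and lay between 14.78 and 14.87 at E20, a rise of 3.65 (SE 0.109). Its E20 values were near the highest intensity of any lung array (34649 units), where a rise may be understated, which was not tested.

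The enzymes that make surfactant lipid moved far less. Of 22 measured genes listed under phospholipid synthesis 4 rose (median 0.31). The largest of these rises, 4.62, was that of Pla2g1b (5.89 to 6.49 at E16, 10.11 to 11.26 at E20). It is a secreted phospholipase that cuts phospholipids and does not make them. Cds1, which makes the CDP-diacylglycerol precursor of phosphatidylglycerol, rose by 3.36 (6.07 to 6.58 at E16, 9.34 to 10.12 at E20). Lpcat1, which reacylates lysophosphatidylcholine to the saturated surfactant lipid, rose by 1.78 and Agpat2, an acyltransferase of phosphatidic acid synthesis, by 1.27. In fatty acid synthesis, 2 of 16 genes were called, in opposite directions; without E20 arrays 1, 6 and 8, 2 rose and 1 fell. The desaturase Scd rose by 2.39 (SE 0.222) and was widely spread at E20 (7.97 to 10.41), whereas the elongase Elovl6 fell from a median of 10.22 to one of 8.11 (-2.07, SE 0.091). Of 17 genes of sterol synthesis 0 were called by limma; at an unadjusted p under 0.05, 4 were higher and 6 lower.

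Alveolar type I genes rose in 17 of 20 measured cases, with a median difference of 2.48. The receptor Ager, a classical type I marker, ranged from 7.40 to 7.76 at E16 and from 11.88 to 13.28 at E20 (5.04, SE 0.149). Hopx, a homeodomain protein of type I cells, was already bright at E16 (10.03 to 10.53) and reached 13.32 to 13.78. Pdpn, a membrane glycoprotein of the flat type I surface, rose by 2.32 (SE 0.102), and the tight junction protein Cldn18 by 3.79 (SE 0.109). Emp2, a small membrane protein, rose by 4.15 and Gprc5a, an orphan receptor, by 3.72. The vessel growth factor Vegfa, made by the distal epithelium, rose by 1.16. Aqp5, a water channel often used as a type I marker, had a difference of 0.60 (7.25 to 7.80 at E16, 7.70 to 8.35 at E20), below the 2-fold minimum, and its arrays overlapped. Ager was lowest at E20 in arrays 1, 6 and 8 (11.88 to 12.04, against 12.52 to 13.28 in the other 7).

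Airway secretory genes rose in 9 of 17 measured cases (median 1.72). Scgb1a1, the main secretory protein of club cells, stood at 8.67 to 9.95 (median 9.05) at E16 and 14.06 to 14.53 (14.45) at E20 (5.24, SE 0.12). Scgb3a1, another secretoglobin, rose by 5.01 (SE 0.39), and its E20 arrays were spread over more than 3 log2 units, from 9.56 to 13.08, with a median of 12.54. The E20 arrays were also far apart for the chitinase Chia (9.36 to 12.33), while its E16 arrays lay between 4.54 and 5.70. Muc1, a membrane mucin, rose by 4.59 and Cyp2f4, a cytochrome P450 of club cells, by 4.47.

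Genes of motile cilia rose in 10 of 23 measured cases (median 0.96), and 21 of the 23 were higher at an adjusted p under 0.05 without the fold minimum. Ak7, an adenylate kinase of cilia, was near the floor at E16 (3.71 to 5.13) and stood at 8.29 to 8.84 at E20. Dynlrb2, a dynein light chain, rose by 3.70 (SE 0.102), and Rsph1, a radial spoke protein, by 3.02 (SE 0.146). Upstream of these, Ccno, a cyclin-like protein needed to multiply the basal bodies, rose by 2.48 (6.49 to 7.57 at E16, 8.68 to 9.73 at E20) and Foxj1, the master transcription factor of motile cilia, by 1.26 (8.15 to 8.55, then 9.13 to 9.97). Fewer basal cell and neuroendocrine genes were called, but most of them were dim. Only 3 of 10 and 6 of 18 had a group mean above the median lung level. Of the 3 bright basal cell genes 2 rose, and of the 6 bright neuroendocrine genes 1 rose and 2 fell. Of 10 basal cell genes 2 rose, the water channel Aqp3 (2.06) and the keratin Krt15 (1.24), and of 18 neuroendocrine genes 1 rose, the neuropeptide gene Calca (1.95, SE 0.109), and 2 fell, the synaptic protein Cplx2 (-1.85) and the ubiquitin hydrolase Uchl1 (-1.12).

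The promoters of 3 of these rising genes are shown because they hold matches to motifs of lung epithelial factors, and that of Ccno because it holds an RFX half-site, the motif of the factors that work with Foxj1. The sequences are the 250 bases before the annotated gene start, 5′ to 3′ on the gene's strand, from RefSeq (build GRCr8); capitals mark matches to the motifs searched.
Sftpb (chr4:105917338-105917587, plus strand): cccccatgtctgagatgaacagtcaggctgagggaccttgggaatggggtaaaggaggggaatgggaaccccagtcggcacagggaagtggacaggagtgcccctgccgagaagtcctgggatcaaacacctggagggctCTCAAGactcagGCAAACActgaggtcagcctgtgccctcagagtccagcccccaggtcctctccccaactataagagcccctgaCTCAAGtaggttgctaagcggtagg
Sftpa1 (chr16:17042014-17042263, plus strand): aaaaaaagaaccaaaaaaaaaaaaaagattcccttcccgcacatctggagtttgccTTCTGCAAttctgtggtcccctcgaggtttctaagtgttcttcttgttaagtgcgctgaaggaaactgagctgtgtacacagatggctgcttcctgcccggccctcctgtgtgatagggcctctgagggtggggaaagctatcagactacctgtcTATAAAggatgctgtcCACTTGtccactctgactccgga
Scgb1a1 (chr1:215409687-215409936, minus strand): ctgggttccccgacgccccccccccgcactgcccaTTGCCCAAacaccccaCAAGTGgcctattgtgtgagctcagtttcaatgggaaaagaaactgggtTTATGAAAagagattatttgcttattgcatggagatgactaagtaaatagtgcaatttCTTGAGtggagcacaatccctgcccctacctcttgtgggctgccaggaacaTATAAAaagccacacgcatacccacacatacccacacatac
Ccno (chr2:46363824-46364073, plus strand): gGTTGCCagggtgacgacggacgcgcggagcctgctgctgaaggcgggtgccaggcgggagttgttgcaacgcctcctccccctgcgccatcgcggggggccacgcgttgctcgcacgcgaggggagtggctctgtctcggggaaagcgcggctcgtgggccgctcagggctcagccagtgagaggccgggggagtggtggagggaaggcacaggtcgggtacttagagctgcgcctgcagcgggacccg
Sftpb holds 2 matches to the NKX2-1 motif (CAAGTG or CTCAAG on either strand), at 110 and 25 bases before the start, and 1 FOXA match (TGTTTAC or TGTTTGC) at 98. Sftpa1 holds 1 NKX2-1 match at 23 bases, 1 C/EBP match (TTNCNNAA) at 194 and a TATA box (TATAAA) at 39. In Scgb1a1 there were 2 NKX2-1 matches, at 199 and 92 bases, 2 C/EBP matches, at 215 and 150, and a TATA box at 41. Ccno holds 1 RFX half-site (GTTGCC) at 249 bases. Over windows of 300 bases, from 250 before to 50 after the start, 7 of 17 surfactant and lamellar body promoters held the NKX2-1 motif (41.2%), against 23.3% of all 11700 promoters matched and 27.5% of those of the genes that rose. The C/EBP motif was in 8 of the 17 (47.1%) against 31.6% of all, and the FOXA motif in 5.88% against 5.87%. In alveolar type I promoters the shares were near those of all, with the NKX2-1 motif in 4 of 18 (22.2%) and the C/EBP motif in 6 of 18 (33.3%). The RFX half-site was found in 9 of 18 ciliated cell promoters and in 12.4% of all. The longer RFX motif, searched as well, was found in 0 of the 18 and in 0.342% of all. A motif this rare among all promoters could be missing from 18 in any case, so no conclusion is drawn from its absence. A match of letters is a description of the sequence and does not show that a factor binds there.

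Transcription factors of the lung epithelium rose in 10 of 28 measured cases (median 0.76). Tfcp2l1 rose by 2.95 (4.99 to 5.72 at E16, 7.79 to 9.24 at E20), Klf5, a Krüppel-like factor of the distal epithelium, by 2.89 (8.20 to 8.91, then 11.18 to 11.58), and Elf5, an ETS factor of the growing tips, by 2.84 (7.38 to 8.21, then 10.35 to 10.72). Cebpa, which drives type II cell maturation, rose by 2.78 (SE 0.095) and the ETS factor Elf3 by 2.10 (SE 0.068). The ages did not overlap in any of these 5. The field-defining factors moved less: Nkx2-1 had a difference of 0.96 (SE 0.167) and Foxa2 of 0.83 (SE 0.103), both below the 2-fold minimum, and Sox2, the factor of the proximal airway, of 0.31 (SE 0.104), and the arrays of both ages overlapped in all 3. Without E20 arrays 1, 6 and 8 the difference of Nkx2-1 was 1.14 and passed.

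Genes of the branching tip were called in 4 of 21 cases, 2 in each direction (median -0.044). Hhip, which binds and blocks Hedgehog ligands, rose by 1.96 (6.43 to 6.90 at E16, 8.05 to 9.26 at E20) and Bmp4, a growth factor of the distal tip, by 1.23. Sox11, a transcription factor of embryonic tissues, fell by 2.35 on the log2 scale (8.23 to 9.02, then 5.82 to 6.68) and Fgf9, a growth factor from epithelium and mesothelium that expands the mesenchyme, fell by 1.45. Fgf10, the mesenchymal signal that draws buds outward, stood at 7.32 to 7.68 and 7.44 to 7.84, with a difference of 0.087 (limma adjusted p = 0.208). Of the Hox list, the genes that record position along the body axis, 5 of 18 fell, and these were the 5 measured of the Hoxb cluster in the list. Hoxb6 fell furthest (10.70 to 11.05 at E16, 8.04 to 8.44 at E20), followed by Hoxb2 and Hoxb7 (both -1.32), Hoxb4 (-1.12) and Hoxb3 (-1.07). Among 13 listed genes of the other clusters, 0 were called by limma and 4 were lower at an unadjusted p under 0.05. Only 7 of the 18 had a group mean above the median lung level, and 5 of these 7 fell. Most listed genes of the other clusters were thus dim, where a fall could hardly reach 2-fold. Whether the fall is particular to the Hoxb cluster was therefore not tested.

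Imprinted and fetal growth genes did not move as a block. Dlk1, an imprinted membrane protein related to Notch ligands, rose by 4.38 (SE 0.283), from 6.86 to 9.15 at E16 to 11.37 to 12.99 at E20, and Meg3, the imprinted non-coding RNA of the same locus, by 1.67 (SE 0.179). Ndn, an imprinted growth regulator, fell from a median of 11.91 to one of 10.68 (-1.23, SE 0.083). The insulin-like growth factor Igf2 (12.89 to 13.85, then 12.46 to 13.04) and the RNA H19 (13.34 to 13.79, then 12.99 to 13.32) were among the brightest transcripts at both ages, with differences of -0.66 and -0.49 that did not reach 2-fold. Dlk1 and Meg3 were the 2 that rose among the 23 genes of this list, and Ndn and the fetal liver protein Afp the 2 that fell.

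In each of the signalling pathways most members were not called. Over all genes 11.8% were called in either direction, and the counts below are to be read against that share. In the Wnt pathway, 2 of 36 rose and 3 fell (median -0.075). The ligand Wnt4 rose 9.99-fold, from 5.68 to 6.79 at E16 to 8.93 to 10.06 at E20 (3.32, SE 0.144). The secreted inhibitor Wif1 rose by 1.94 (8.81 to 9.71, then 10.84 to 11.76), while the secreted inhibitors Sfrp2 (-1.97, SE 0.139) and Sfrp1 (-1.81, SE 0.112) fell. Lef1, a nuclear effector of the pathway, fell from 10.34 to 10.88 at E16 to 8.04 to 9.08 at E20. In the Hedgehog pathway the receptor-side gene Smo (-1.22) and the transcription factor Gli1 (-1.26), a target of the pathway, fell, while the inhibitor Hhip rose, among 14 measured. The activity of the pathway was not tested. The ligand Shh itself was low at both ages (7.19 to 7.35, then 7.65 to 8.17), with a difference of 0.59.

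In the FGF pathway 4 of 28 genes rose and 2 fell. Of the ligands, Fgf18, made by mesenchyme during saccule formation, rose by 1.74 (6.07 to 6.87, then 7.84 to 8.71), and Fgf9 and the intracellular Fgf13 (-1.34) fell. Of the receptors, Fgfr3 rose by 1.53 (9.85 to 10.19, then 11.25 to 11.76) and Fgfr4 by 1.09, and the FGF receptor partner Flrt3 rose by 2.36 (SE 0.102). In the BMP and TGF-beta pathway 5 of 37 rose and 1 fell: the activin subunit Inhbb by 2.83 (SE 0.126), the endothelial receptor Acvrl1 by 1.40, the activin antagonist Fstl3 by 1.23, Bmp4, and the BMP target Id1 by 1.01, whereas Bmp7 fell by 1.66 on the log2 scale (8.95 to 9.38, then 7.26 to 7.66). Of 24 retinoid genes 3 fell and 1 rose (median 0.067). Crabp2, which delivers retinoic acid to its receptor, ranged from 10.68 to 11.24 at E16 and from 6.50 to 6.93 at E20 (-4.33, SE 0.065). Lrat, which esterifies retinol for storage, fell by 2.01 on the log2 scale, and Aldh1a2, the main embryonic retinoic acid synthase, by 1.09, while the related Aldh1a1 rose by 1.74. Of 23 Notch pathway genes, Dlk1 and the target Hey1 (1.09) rose. Of 17 IGF genes, the binding proteins Igfbp6 (1.96) and Igfbp7 (1.49) and the protease Htra1 (1.55) rose. Guidance genes were called in 7 of 29 cases, with Sema3b (2.03) and the receptor Nrp2 (1.55) among 6 rises and the ephrin receptor Epha3 (-1.82, SE 0.066) the 1 fall.

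**Figure D3:**
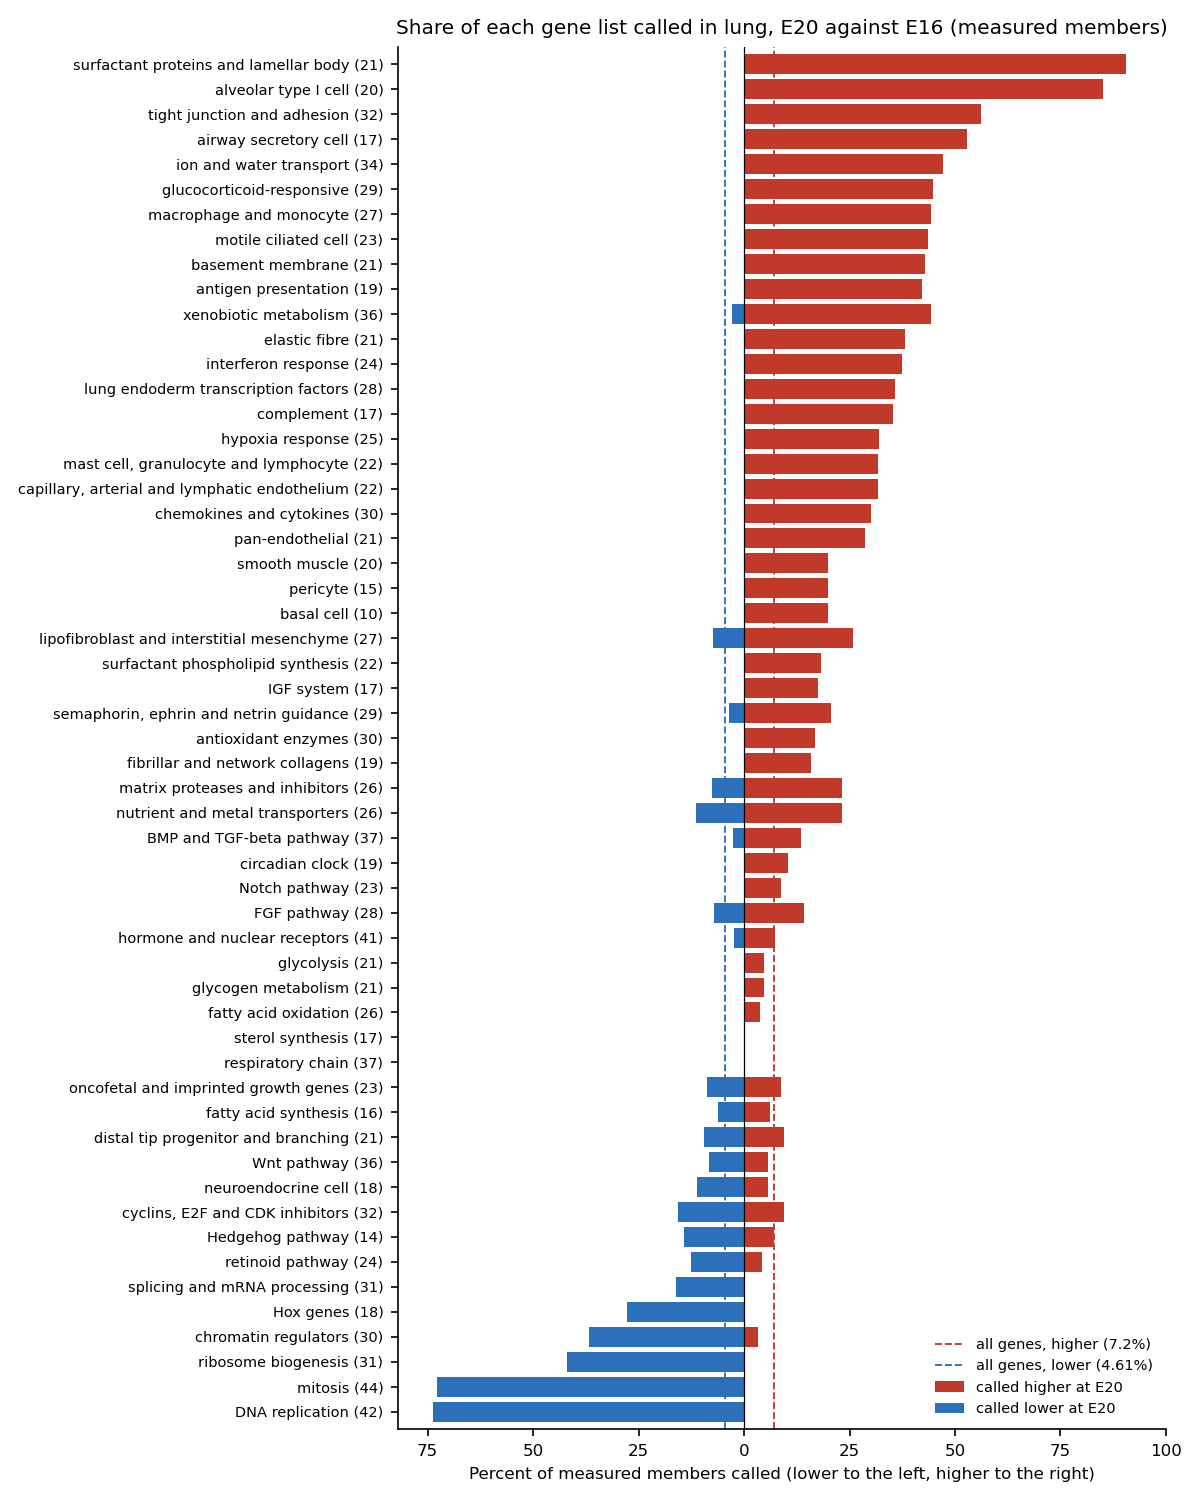
Share of the measured members of each gene list that rose (red, to the right) or fell (blue, to the left) in the lung, in percent, with the number measured in brackets; dashed lines are the shares over all genes, 7.2% and 4.61%. Surfactant (90.5%) and alveolar type I (85.0%) lists stand at one end, DNA replication (73.8%) and mitosis (72.7%) at the other.

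Among matrix genes, those of elastic fibres rose in 8 of 21 cases (median 0.52) and those of the basement membrane in 9 of 21 (median 0.87). Elastin, Eln, ranged from 9.34 to 10.46 at E16 and from 11.85 to 13.11 at E20. Fbln5, which assembles elastic fibres, rose by 2.37 (8.44 to 9.44, then 10.94 to 11.62), and the microfibril proteins Mfap5 and Mfap4 by 2.48 and 2.22. In the basement membrane, the epithelial laminin chains Lamb3 (2.82, SE 0.126) and Lama3 (2.11, SE 0.143) rose most, and Lamb3 was lowest at E20 in arrays 1, 6 and 8 (9.48 to 9.54, against 9.79 to 10.63). Of 19 fibrillar and network collagens 3 rose, the chains of collagen VI: Col6a3 (2.37), Col6a2 (1.53) and Col6a1 (1.35). Col6a2 overlapped between ages. Lipofibroblast and interstitial genes rose in 7 of 27 cases and fell in 2. Lpl, which releases fatty acids from circulating lipoproteins, rose by 2.81 (8.37 to 8.60, then 10.71 to 11.76), and Pparg, the nuclear receptor of fat-storing cells, by 2.32 (4.65 to 5.70, then 7.39 to 7.72). Matrix proteases and inhibitors were called in 8 of 26 cases, with the inhibitor Timp3 (2.14) and the membrane protease Mmp15 (1.75) among 6 rises and Adamts5 (-1.37) and Mmp16 (-1.02) the 2 falls.

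Vessel and mural cell genes rose in part. Of 21 pan-endothelial genes 6 rose, with a median of 0.77, and 18 were higher at an adjusted p under 0.05 without the fold minimum. The adhesion molecule Pecam1, found on all endothelium, ranged from 9.18 to 9.59 at E16 and from 10.35 to 10.97 at E20. Genes of specialised endothelium rose in 7 of 22 cases, led by Lpl, the arterial gap junction protein Gja5 (2.70, SE 0.146) and Fibin (2.57, SE 0.086), and included Ace, the angiotensin-converting enzyme of lung capillaries (7.33 to 7.93, then 8.49 to 9.50). Of 15 pericyte genes 3 rose, and 5 did without E20 arrays 1, 6 and 8. Higd1b, a marker of lung pericytes, moved furthest (7.62 to 8.02, then 10.49 to 11.22), followed by the potassium channel regulator Abcc9 (1.20) and the matrix protein Postn (1.13). Smooth muscle genes rose in 4 of 20 cases: Hhip, and, close to the 2-fold minimum, Lmod1 (1.05), Myh11 (1.01) and Synm (1.01). With arrays centred on their median these 3 were at 0.97, 0.92 and 0.92 and were no longer called. Acta2, smooth muscle actin, had a difference of 0.68 (10.99 to 11.81, then 11.99 to 12.27).

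Genes of immune cells and of innate defence rose before birth. Macrophage and monocyte genes did so in 12 of 27 cases (median 0.78), including the scavenger receptor Cd163 (5.04 to 5.70 at E16, 7.94 to 8.33 at E20) and the leukocyte protein Lcp1 (9.11 to 9.48, then 10.84 to 11.37). Lyz2, also in this list, is made by type II cells in the rat lung as well. Of 22 genes of mast cells, granulocytes and lymphocytes 7 rose, all of them genes of mast cells or granulocytes. Only 5 of the 22 had a group mean above the median lung level, and all 5 rose. The lymphocyte genes were dim, so no conclusion is drawn from their lack of calls. The calgranulins S100a9 (6.73 to 8.27, then 10.74 to 11.77) and S100a8 (7.21 to 8.04, then 10.30 to 11.18) moved furthest. The antimicrobial Camp rose by 2.52, the histamine-making enzyme Hdc by 1.87 and the mast cell chymase Cma1 by 1.28, the last with overlapping arrays (6.09 to 7.28, then 6.90 to 9.11).

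Of 19 genes that present antigen 8 rose (median 0.82). Cd74, the chaperone of class II molecules, rose by 2.72 (SE 0.201) and RT1-Bb, a class II chain, by 2.28 (SE 0.242), and both were widely spread at E20 (10.17 to 11.71 and 8.22 to 10.15). The peptide transporter Tap1 (1.39) and the immunoproteasome subunit Psmb9 (1.36) also rose. Interferon response genes rose in 9 of 24 cases (median 0.78). Ifitm1, an antiviral membrane protein, rose by 2.41, Bst2, which tethers virus particles, by 2.26, and the regulator Irf7 by 2.04 (6.30 to 6.59, then 8.13 to 9.36). Complement genes rose in 6 of 17 cases, with the central component C3 at 3.53 (SE 0.137) and the protective surface proteins Cd55 at 2.96 and Cd59b at 2.21. Chemokines and cytokines rose in 9 of 30 cases beside Cxcl3, which is not in the list. Cxcl1, a neutrophil attractant like Cxcl3, rose by 3.71 (SE 0.301) with E20 arrays from 7.05 to 9.96, Ccl2, which attracts monocytes, by 1.46, and Il34, a ligand of the macrophage growth factor receptor, by 1.31 (6.20 to 6.51, then 7.52 to 7.87).

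Genes of cell division fell together. DNA replication genes fell in 31 of 42 cases (median -1.17) and mitosis genes in 32 of 44 (median -1.29), and all 44 mitosis genes were lower at E20 with no overlap between ages. The falls were of moderate size. Orc1, a subunit of the complex that marks replication origins, fell furthest among replication genes (8.10 to 8.52, then 5.18 to 6.63), and Mcm6, a subunit of the replicative helicase, fell from 11.55 to 11.84 to 9.64 to 10.42 (-1.69, SE 0.087). Among mitosis genes Kif20b, a kinesin of cell division, fell by 1.86 on the log2 scale (10.79 to 11.13, then 8.59 to 9.80), and its 3 highest E20 values (9.55 to 9.80) were those of arrays 1, 6 and 8. Mki67, the common proliferation marker, remained bright, at 11.61 to 12.07 and 10.61 to 11.30, and its difference of -0.94 (SE 0.085) missed the 2-fold minimum; without E20 arrays 1, 6 and 8 it was -1.04 and passed, as it did with arrays centred on their median (-1.03).

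Regulators of the cell cycle were split. Of 32 cyclins, E2F factors and CDK inhibitors, 5 fell and 3 rose. Ccne1, the cyclin that starts S phase, fell by 2.30 on the log2 scale (10.88 to 11.15, then 8.07 to 9.38), and E2f8 (-1.54), E2f7 (-1.20), Ccne2 (-1.07) and the pocket protein Rbl1 (-1.04) fell as well. The growth arrest genes Gadd45g (6.96 to 7.67, then 10.33 to 11.06), Cdkn1a (7.38 to 8.08, then 9.09 to 10.52) and Cdkn2b (1.03, SE 0.077) rose. Of 30 chromatin regulators 11 fell, among them the remodeller Hells (-1.72), the histone chaperone Nasp (-1.71), the DNA methyltransferase Dnmt3a (-1.55) and the Polycomb methyltransferase Ezh2 (10.51 to 10.71, then 8.90 to 9.38), while its paralog Ezh1 was the 1 that rose (8.55 to 8.80, then 9.28 to 9.97).

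Ribosome biogenesis genes fell in 13 of 31 cases (median -0.97), including the nucleolar proteins Nolc1 (-1.67, SE 0.093), Gar1 (-1.44) and Fbl (12.45 to 12.62, then 10.91 to 11.52). Splicing genes fell in 5 of 31 cases (median -0.64), led by the core protein Snrpd1 (-1.56) and the splicing factor Srsf7 (-1.42), and 30 of the 31 were lower at an adjusted p under 0.05 without the fold minimum.

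Promoters of 2 of these falling genes are given in the same form, because replication and mitosis promoters differed in the motifs they hold.
Mcm6 (chr13:42404353-42404602, minus strand): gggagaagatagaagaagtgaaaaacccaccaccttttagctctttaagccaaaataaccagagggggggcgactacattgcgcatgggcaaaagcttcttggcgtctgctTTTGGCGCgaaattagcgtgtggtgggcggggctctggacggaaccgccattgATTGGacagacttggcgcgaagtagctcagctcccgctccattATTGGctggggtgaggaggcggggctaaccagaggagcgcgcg
Kif20b (chr1:241840766-241841015, plus strand): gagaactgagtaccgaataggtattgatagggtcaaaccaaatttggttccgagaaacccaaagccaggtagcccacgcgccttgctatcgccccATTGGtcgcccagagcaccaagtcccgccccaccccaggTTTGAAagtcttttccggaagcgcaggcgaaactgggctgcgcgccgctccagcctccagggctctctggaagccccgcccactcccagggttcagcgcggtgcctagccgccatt
Mcm6 holds 1 E2F match (TTTCCCGC or TTTGGCGC on either strand) at 139 bases before the start and 2 matches to the box CCAAT, bound by NF-Y, at 86 and 43. Kif20b holds 1 such box at 155 and 1 cell cycle homology region (CHR, searched as TTTGAA) at 116. The E2F motif was found in 15 of 38 replication promoters (39.5%) and 0 of 38 mitosis promoters, against 2.59% of all 11700. The CHR letters showed the reverse, in 27 of 38 mitosis promoters (71.1%) and 3 of 38 replication promoters (7.89%), against 12.3% of all. The NF-Y box was found in 78.9% of mitosis and 57.9% of replication promoters, against 37.3% of all. The promoters of rising and falling genes also differed in CpG content, the observed over the expected number of CG pairs. A ratio of at least 0.6 was found in 48.0% of 794 promoters of genes that rose, 76.8% of 534 of genes that fell and 63.9% of all. The share declined with the size of a rise, to 25.7% of the 35 promoters of genes with a difference of 4 or more, and the 37 genes with a difference below -2 were also low, at 37.8%. CpG content and motif letters are not independent of each other, and these shares were not tested.

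**Figure D4:**
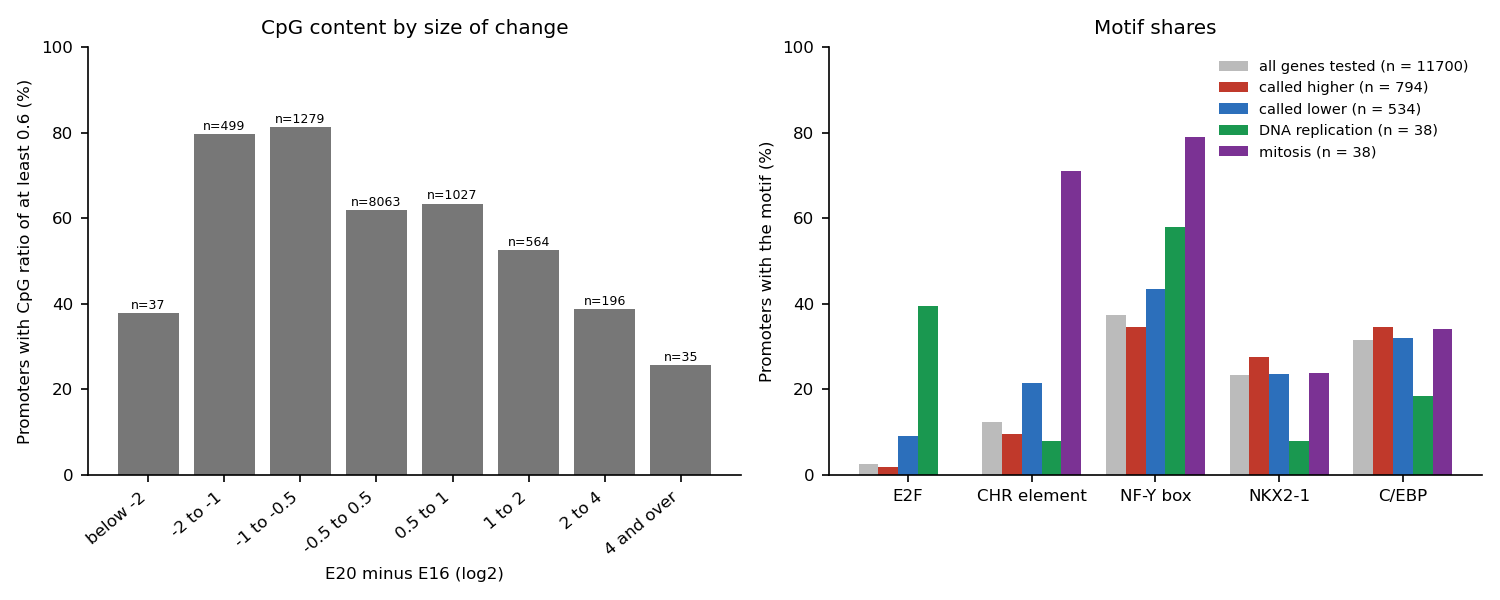
Left, percent of promoters with a CpG ratio of at least 0.6 by the difference E20 minus E16 (log2), with the number of promoters above each bar. Right, percent of promoters that hold each motif, over all genes, genes that rose or fell, and the replication and mitosis lists. The E2F bar is highest for replication genes (39.5%), and the bars of the CHR element (71.1%) and of the NF-Y box (78.9%) are highest for mitosis genes.

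Few genes of energy metabolism were called. Of 37 respiratory chain genes 0 were called by limma (median -0.26), and at an unadjusted p under 0.05, 2 were higher and 25 lower. In glycolysis, glycogen metabolism and fatty acid oxidation 1 gene each rose, of 21, 21 and 26: Pfkfb3, which sets the level of a glycolytic activator (1.43, SE 0.126), Pygl, a glycogen phosphorylase (9.20 to 9.90, then 10.81 to 11.24), and the carnitine carrier Slc22a5 (1.27, SE 0.068). Of 30 antioxidant genes 5 rose: the glutathione peroxidases Gpx2 (8.85 to 9.26, then 10.99 to 11.92) and Gpx3 (2.00), the microsomal transferase Mgst1 (2.34), the quinone reductase Nqo1 (1.53) and Prdx6 (1.41), a peroxiredoxin that also acts on surfactant lipid. The central enzymes Sod1 (12.51 to 12.75, then 12.93 to 13.11) and Cat (11.74 to 11.92, then 12.08 to 12.47) were bright at both ages and did not overlap, with differences of 0.36 and 0.41. Of 36 genes that handle foreign compounds 16 rose (median 0.64), including the sulfotransferase Sult1a1 (6.18 to 7.04, then 11.48 to 12.53) and Cyp3a9 (2.99), while the exporter Abcg2 fell (-1.20). Without E20 arrays 1, 6 and 8, 2 genes of this list and 1 antioxidant gene fell.

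Transport and barrier genes rose widely. Ion and water transport genes did so in 16 of 34 cases (median 0.95). Scnn1a, the sodium channel subunit by which lung liquid is absorbed at birth, ranged from 6.04 to 6.84 at E16 and from 9.71 to 11.57 at E20, and the 3 lowest E20 values (9.71 to 10.02) were again those of arrays 1, 6 and 8. Fxyd3, a regulator of the sodium pump, rose by 3.48 (SE 0.084), the potassium channel Kcnj15 by 3.03, and the chloride channel Ano1, which secretes fluid, by 2.87. Of 32 genes of tight junctions and cell adhesion 18 rose (median 1.20), with Perp, a desmosome protein, at 3.06, Krt19 at 2.55 and Cldn3 at 2.25. Of 26 nutrient and metal transporters 6 rose, led by Slc6a14 and the glutamate carrier Slc1a1 (2.71), and 3 fell, the transferrin receptor Tfrc (-1.33), the amino acid exchanger Slc7a5 (-1.23) and Slc38a4 (-1.10).

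Genes that respond to glucocorticoid rose in 13 of 29 cases (median 0.91). The transcription factor Klf15 rose 13.1-fold (7.42 to 7.73 at E16, 10.95 to 11.85 at E20) and its relative Klf9 by 3.23 (SE 0.157). Hsd11b1, which regenerates active glucocorticoid inside cells, ranged from 8.74 to 9.35 and then from 12.24 to 12.68 (3.45, SE 0.076). The receptor itself, Nr3c1, stood at 10.16 to 10.42 and 11.02 to 11.44, and its 1.996-fold difference (SE 0.057 on the log2 scale) fell just short of 2-fold, and it passed without E20 arrays 1, 6 and 8 (1.02). Of 41 hormone and nuclear receptors 3 rose, Pparg, the receptor of vasoactive intestinal peptide Vipr1 (2.15) and the oxysterol receptor Nr1h3 (1.19), and 1 fell, Nr2f1 (-1.11). Of 19 clock genes, Bhlhe40 (2.59) and Npas2 (1.82) rose, and 4 did without E20 arrays 1, 6 and 8. Hypoxia response genes rose in 8 of 25 cases, including Ndrg1 (8.44 to 8.80, then 11.29 to 11.82), Egln3 (1.84) and Epas1, the hypoxia-inducible subunit of endothelium and type II cells (9.81 to 10.95, then 11.88 to 12.77), whereas Hif1a, its widely expressed relative, was not called (11.77 to 11.95, then 11.48 to 11.94, limma adjusted p = 0.0584).

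Of the other genes among the 15 largest falls, Phgdh, the first enzyme of serine synthesis, ranged from 11.29 to 11.50 at E16 and from 8.01 to 8.76 at E20, an 8.05-fold fall. Tubb2b, an embryonic tubulin, fell by 2.89 on the log2 scale (11.11 to 11.60, then 8.04 to 8.71) and the kinase Rps6ka6 by 2.83 (10.44 to 10.67, then 7.06 to 8.70). Cdh2, the cadherin of mesenchymal and neural cells, fell by 2.63, Col26a1 by 2.82 and Fndc3c1 by 2.57. The related genes Arxes2 (-3.20, SE 0.114) and Arxes1 (-2.57, SE 0.104) both fell; they are near copies of each other, so probe sets may cross-react.

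Lists of blood, cartilage and nerve cells were also followed. Embryonic globins fell: Hbz from 12.57 to 13.37 to 6.83 to 8.20, and Hbe1 (-3.75) and Hbg1 (-3.46). With them Rhag, a red cell membrane protein, fell by 2.00 on the log2 scale, and 8 of 23 erythroid genes fell in all. Cartilage genes fell in 5 of 19 cases, Cnmd (-4.35), Col9a1 (-4.19), Col2a1 (-3.74), Col9a3 (-2.04) and Sox6 (-1.29), and 1 rose, Fmod (1.29), a fibromodulin also made by other connective tissue. Of 25 genes of neurons and glia 4 fell, Nefm (-2.51), Elavl4 (-2.50), Gap43 (-2.35) and Stmn2 (-1.72). How far a change in the share of these tissues in the sample contributes to the falls was not tested.

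Mesothelial genes were called in both directions, with the surface protein Msln (6.63 to 7.59, then 9.37 to 10.55) among 5 rises and Bnc1 (-1.80) and Wt1 (-1.34) among 3 falls of 13. In all 3 falls the arrays of both ages overlapped. At E20 Wt1 stood at 7.70 to 8.96 in arrays 1, 6 and 8 and at 6.87 to 7.75 in the other 7. Bnc1 stood at 5.76 to 7.52 in those 3 arrays and at 5.01 to 6.41 in the others. Of 25 liver genes 4 fell and 1, the plasma protein Hp, rose (6.87 to 7.15, then 9.50 to 10.08). Without E20 arrays 1, 6 and 8, 7 fell. The falls of Afp and Alb rest on arrays that differ widely: at E20 Afp had a median of 5.31 but reached 11.47, and Alb a median of 6.35 but 12.29. Their highest E20 values were in arrays 1 and 8, and without arrays 1, 6 and 8 the differences were -5.86 for Afp and -4.19 for Alb, as against -4.56 and -2.93 with all arrays. Of 21 cardiac muscle genes 0 were called by limma; 4 were higher and 1 lower at an unadjusted p under 0.05. Skeletal muscle genes fell in 5 of 20 cases, all with overlapping arrays.

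**Figure D5:**
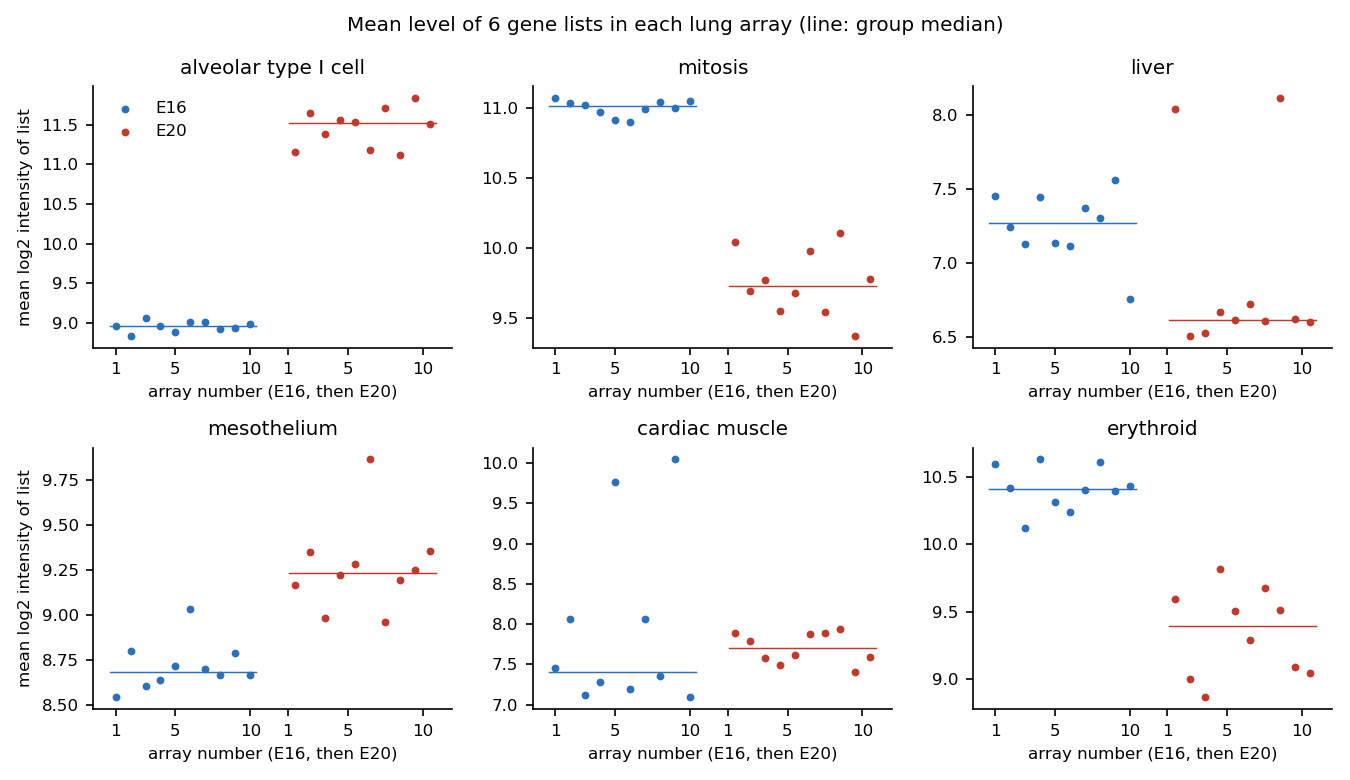
Mean log2 intensity of 6 gene lists in each lung array, with E16 in blue and E20 in red and a line at each group's median. The type I and mitosis lists separate the ages in every array, with E20 arrays 1, 6 and 8 lowest for type I genes (11.15, 11.18 and 11.12) and highest for mitosis genes (10.04, 9.97 and 10.10). Liver genes stand out in E20 arrays 1 and 8, mesothelium in E20 array 6 and cardiac muscle in E16 arrays 5 and 9.

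Over 9047 genes above the median level, the median SD between arrays was 0.128 at E16 and 0.168 at E20. At E16 the widest were Eif2s3y, a Y-linked gene that differs between male and female fetuses, and then genes of cardiac muscle. Eif2s3y ranged from 2.94 to 11.86 (median 11.48) at E16 and from 2.91 to 11.67 (median 7.32) at E20. The sex-dependent RNA Xist ranged from 3.56 to 13.09 at E20. The share of male samples may thus differ between the ages, and its part in the differences was not tested. At E20 the widest after Eif2s3y were Afp and Alb, then Plaat3, a phospholipase (6.32 to 11.60, median 11.27), Scgb3a1 and Wtap, a subunit of the RNA methylation complex (8.66 to 11.83, median 11.38). Wtap fell by 1.05 on the log2 scale (SE 0.362) with all arrays, but was at -0.75 and not called without E20 arrays 1, 6 and 8, and at -0.86 with array weights. The 2 low E20 values of Plaat3 were those of arrays 1 (6.32) and 8 (6.71), and the other 8 lay at 10.44 or above. Its difference was 1.28 (SE 0.581, limma adjusted p = 0.0595) and not called with all arrays. It was 2.18 and called without E20 arrays 1, 6 and 8, and it was also called with array weights (1.68), the pseudocount (1.29), bright probe sets alone and the replicate block (both 1.28).

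Probe sets of the same gene mostly gave the same direction. Of 344 other bright probe sets of called genes, 330 had the same sign (95.93%) and 226 were called the same way. In 1 gene, Gas6, a growth factor that binds receptors of dying-cell clearance, 2 probe sets were called in opposite directions (1.28, SE 0.064, and -1.43, SE 0.092) and the third had a difference of 0.11 (SE 0.091), so no direction is given for it. With the mean of a gene's probe sets in place of the brightest, calls named above were lost for Vegfa (0.64), Calca (0.59), Nrp2 (0.91), Col6a2 (0.81), Abcc9 (0.74), Myh11 (0.55), Synm (0.36), Tap1 (0.71), Ccne2 (-0.64), Ezh2 (-0.93), Ezh1 (0.57), Nolc1 (-0.84), Pfkfb3 (0.63), Wt1 (-0.76) and Wtap (-0.62), each in the same direction as before. At the 2-fold limit, the 5 rises nearest to it had differences of 1.0007 to 1.0049 and the 5 genes just short of it 0.9977 to 0.9999; for falls the values were -1.004 to -1.0009 and -0.9998 to -0.9973.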

How the data were processed

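RNA of whole lung was measured on 20 arrays, 10 at each age. The deposited intensity values are linear and were made with RMA, per the submitters' processing notes, with no version given; the normalization therefore sets the arrays to a common scale, and an equal change of all genes could not be seen. They were taken to log2, although log2 values had been assumed when the test was chosen. Differences were tested with limma 3.58.1 (R 4.3.3, lmFit and eBayes, two-sided), and p-values were adjusted by Benjamini-Hochberg over 20826 probe sets. Of the 31099 probe sets, 436 had several symbols and 9831 none, and these were left out with 6 control probe sets that carried a symbol; 20758 were matched to RefSeq gene names (build GRCr8). Promoters of 11700 genes were matched in the same source. The number of arrays limits the precision.

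Named are the 15 largest rises and falls without overlap, up to 5 called members of each list (or all where 5 or fewer were called in a direction), a set of marker genes whatever their value, the 10 most variable genes at each age, and genes whose probe sets disagree. Members and lists were chosen with earlier results of these data known. The calculation was run on simulated data with independent normal noise of each probe set's own spread. Of 100 probe sets changed by 1.5 log2 units 100 were called, and 0 of 20626 unchanged ones. These changes lay above the 2-fold minimum, and the noise held no differences shared between genes of an array. The run therefore checks only that the calculation works and does not bear on the calls in the real data. Same-numbered arrays of both ages were checked for pairing: 6 of 10 pairs correlated over 0.1 (range -0.267 to 0.37), so the numbers were not taken as pairs. Alternatives were other scalings, a pseudocount of 32, a filter on dim probe sets, the mean of a gene's probe sets, array weights, left-out arrays, a replicate block and a test against a 1.5-fold change. Intestine arrays were not used.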

Additional observations from a re-analysis of the deposited data

Results flagged for a closer look

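An array stood apart from the other 9 of its age, by Dixon's criterion (a gap to the next array of over 0.466 of the range), in 42 of 594 sets of 10 values checked, those of the named genes and of the list means. Chance flags about 1 in 20 groups. Values are log2 intensities. E16 array 6 was highest for Agpat2 (8.66), Cd74 (9.09). E16 array 7 was highest for Gramd2a (5.21), Defb4 (5.63), Cyp2f4 (5.48), Ak7 (5.13), Cd163 (5.70), Cyp3a9 (5.44). E16 array 1 was lowest for Foxj1 (8.15), Fgf18 (6.07). E16 array 2 was lowest for Timp3 (9.84), Mmp15 (8.76), Epas1 (9.81). E16 array 3 was lowest for Cd59b (9.24). E16 array 6 was lowest for Mki67 (11.61), Cat (11.74). E16 array 10 was lowest for Afp (8.76), Alb (8.20). E20 array 1 was highest for Slc7a5 (8.65). E20 array 6 was highest for Aldh1a2 (11.08), Igfbp6 (11.20), Ifitm1 (11.44), Cyp3a9 (8.47), Msln (10.55). E20 array 8 was highest for Elovl6 (8.70). E20 array 2 was lowest for Dynlrb2 (10.58). E20 array 3 was lowest for S100a8 (10.30). E20 array 6 was lowest for Cyp2f4 (7.97), Rsph1 (7.56), Ccno (8.68), Lef1 (8.04), Cldn3 (10.59).

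Among the means of gene lists, the surfactant proteins and lamellar body list was lowest in E16 array 5 (8.22), the neuroendocrine cell list was highest in E16 array 7 (7.44), the Hox genes list was highest in E16 array 7 (8.22), the pan-endothelial list was lowest in E16 array 2 (9.05), the macrophage and monocyte list was highest in E16 array 6 (8.63). Likewise, the chromatin regulators list was highest in E16 array 3 (10.81), the tight junction and adhesion list was lowest in E16 array 2 (8.49), the mesothelium list was highest in E16 array 6 (9.03), the mesothelium list was highest in E20 array 6 (9.86), the skeletal muscle list was highest in E20 array 7 (7.63).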

How the results depend on the processing

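The counts of 1023 rises and 656 falls stayed within 1.5 times under other scalings, filters, weights and left-out arrays, with 857 to 1113 rises and 550 to 825 falls; the lowest are those of the 9047 bright genes alone. Testing against a 1.5-fold change, which asks for a smaller change, gave 1341 rises and 1090 falls. Centring the arrays on their median gave 903 rises and 825 falls, a share of rises of 52.3% in place of 60.9%, and moved the median of all genes to -0.0905. Without E20 arrays 1, 6 and 8, which were set apart by their values in these data, there were 1098 rises and 793 falls. Also without E16 arrays 5 and 9, an alternative chosen after seeing the data, there were 1113 and 798. With the replicate block, though the numbers do not pair the arrays (2 of 10 correlated best with their own number), there were 1024 rises and 656 falls. No called gene was called in the opposite direction in these alternatives. Of genes named with a value, the sign of Fgf10 turned under quantile normalization (-0.0131) and that of Gas6 with the mean of its probe sets (-0.0143). Beside the losses with averaged probe sets, and those of Lmod1, Myh11 and Synm given above, Id1 (0.93), Cdkn2b (0.95) and Ezh1 (0.96) lost their calls with centred arrays. With the pseudocount, calls were lost for Fgfr4 (0.99), Mmp16 (-0.90), Cdkn2b (0.88), Ezh1 (0.99), Lmod1 (0.79), Myh11 (0.98) and Synm (0.93). Quantile normalization lost those of Id1 (0.97), Cdkn2b (0.94), Lmod1 (0.995) and Synm (0.95). Wtap was not called in the test against a 1.5-fold change. The causes were not tested. Of 130 list counts, 0 to 9 moved by over 1.5 times, and 20 in the test against 1.5-fold.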

Other observations

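Several gene families were looked at after their values were seen, and their counts are descriptions. Of 14 Krüppel-like factors measured 7 rose, with Klf15, Klf9 and Klf5 followed by Klf2, a factor of endothelium under flow (1.47). Of 14 S100 calcium-binding proteins 8 rose, led by S100g (4.65), S100a9 (3.60), S100a8 (3.24), S100a14 (3.21) and S100a6 (2.63), and of 10 annexins 5 rose, with Anxa4 (2.20) and Anxa1 (2.16) after Anxa8. Of 23 integrins 5 rose and 1 fell: Itgb6, which activates TGF-beta at epithelial surfaces, rose by 3.88 and Itgb4, of the hemidesmosome, by 1.82, while Itgae fell (-1.55).

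Of 21 nucleoporins 9 fell, with Nup85 (-1.74), Nup43 (-1.69) and Nup107 (-1.63) furthest. Of 28 genes of serine, one-carbon and nucleotide synthesis 10 fell, with Mthfd1l (-2.25) and Ppat (-1.49) beside Phgdh. Of 73 mitochondrial ribosomal proteins 7 fell. The 46 cytosolic ribosomal proteins had a median difference of -0.0879, with values from -0.63 to 0.091. Of 36 proteasome genes (median -0.49) 2 rose, a share below that of all genes: the immunoproteasome subunits Psmb9 (1.36) and Psmb8 (1.04), while the difference of the third such subunit, Psmb10, was -0.056.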
